A study of Drosophila melanogaster with 12 samples.

Results

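The genes of the vacuolar proton pump (V-ATPase) and 10 genes of renal tubule transport were followed in RNA from Drosophila melanogaster testes. Members were taken by name from the gene table: every row whose symbol begins with Vha (33 genes), together with Aph-4, Drip, ZnT35C, CG7589, Ir, Prestin, Irk3, CG17664, CG4019 and capaR. These 43 genes are part of 15367 rows, which hold 15240 genes and 127 transposable elements (TEs). The Vha genes were divided from general knowledge into 16 widely expressed genes, 7 testis-enriched genes and 10 other paralogs. A class of tubule-enriched Vha genes could not be set apart by name, since the widely expressed genes are also those known for the tubule pump and no expression atlas was used here. The tubule-enriched class therefore consisted of the 10 transport genes.

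Testes of wild type flies, whose strain was not given in the sources used here, were compared with testes of klp10ARNAi flies. The latter carried nos-gal4, which drives expression in germ cells, and a UAS transgene for RNAi against klp10A. This gene encodes a microtubule-depolymerizing kinesin. Whether the wild type flies carried nos-gal4 was also not given in the sources used here. Effects of the knockdown therefore cannot be told apart from those of driver, transgene or strain. Flies of both genotypes were 0 to 2 days old. Each genotype had 3 mRNA libraries, and each library pooled 300 pairs of testes.

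The V-ATPase is a rotary pump. Its cytosolic V1 sector (subunits A to H) hydrolyses ATP, and its membrane V0 sector (subunits a, c, c'', d and e) carries protons across the membrane. It acidifies lysosomes and other compartments of all cells. In the principal cells of the Malpighian tubule, the renal organ of the fly, the pump also lies in the apical membrane, where it energizes potassium secretion, and water follows through aquaporins. Drosophila encodes several paralogs for most subunits, and some of them are known mainly from testis.

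The libraries held 18634687 to 25536724 counts. Klp10A had 1458, 802 and 1527 counts in wild type and 327, 364 and 313 in klp10ARNAi (log2 fold change -2.35, SE 0.16, adjusted p = 0.00105). Throughout, log2 fold changes are klp10ARNAi relative to wild type, levels are in CPM (counts relative to the size of the library, after TMM scaling), and a gene was called when its adjusted p from edgeR's quasi-likelihood test over 12100 features was under 0.01. The median log2 fold change of all these features was 0.01. The share of genes with a CR number, mostly non-coding, ranged from 30.6 to 51.6% of a wild type library and from 24.9 to 37.2% of a klp10ARNAi library. TMM scaling factors were 0.702 to 1.042 and 0.988 to 1.332, respectively. Levels of different genes are not compared, since transcript lengths were not used here.

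Of the 10 tubule transport genes, 3 fell in klp10ARNAi testes and none rose: the potassium channel gene Irk3, the entomoglyceroporin gene CG4019 and the potassium channel gene Ir. Among all features, 1.83% were called lower and 0.198% higher. The fall was 12.3-fold for Irk3, 2.95-fold for CG4019 and 2.38-fold for Ir. All 10 fold changes were below 0, with a median of -1.03 on the log2 scale and a range from -3.62 to -0.065. With total counts in place of TMM the median was -0.52, and CG7589, Prestin and ZnT35C were above 0, at 0.030, 0.38 and 0.40. In 8 of the 10 genes the klp10ARNAi libraries all lay below the wild type libraries, as they did for 18.4% of all features. In whole tissue, fewer cells of a type and less RNA per cell cannot be told apart. The calls needed all 3 klp10ARNAi libraries: without any 1 of them the adjusted p was 0.0128 to 0.0433 for Irk3, 0.0516 to 0.0570 for CG4019 and 0.0470 to 0.0569 for Ir, and 7, 43 and 0 of all features were called lower. The call of CG4019 was also lost without wild type replicate 1 (adjusted p = 0.0198) and that of Ir without wild type replicate 3 (adjusted p = 0.0119), with fold changes of -1.59 and -1.37 on the log2 scale. With total counts both calls were lost (CG4019 -1.03, adjusted p = 0.0361, and Ir -0.75, adjusted p = 0.0704), and with a mean of at least 1 CPM that of CG4019 (adjusted p = 0.0106).

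Irk3, Ir and Irk2 encode the 3 inward rectifier potassium channels of the fly, which are known for potassium entry into tubule cells. Irk3 was at 14.6, 8.60 and 6.31 CPM in wild type and at 0.282, 1.47 and 0.625 CPM in klp10ARNAi. Its counts were 278, 121 and 131 against 7, 37 and 15. Each klp10ARNAi library was thus below each wild type library, although both groups varied widely (log2 fold change -3.62, SE 0.51, adjusted p = 0.00605). Ir (Irk1 in RefSeq) was at 21.7, 15 and 13.8 CPM in wild type and at 6.97, 7.06 and 7.17 CPM in klp10ARNAi (log2 fold change -1.25, SE 0.19, adjusted p = 0.00815). The knockdown libraries of Ir were nearly equal, and the spread lay in wild type. Irk2, which is not a member, also fell (log2 fold change -1.91, SE 0.30, adjusted p = 0.00999), but this call lay at the limit and held in 5 of 14 alternatives (adjusted p = 0.0101 with DESeq2's size factors).

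Drip encodes an aquaporin known from the stellate cells of the tubule, and CG4019 and CG17664 encode the entomoglyceroporins Eglp4 and Eglp2, relatives of aquaporins. CG4019 was at 3.89, 5.40 and 3.08 CPM in wild type and at 1.45, 1.23 and 1.46 CPM in klp10ARNAi (log2 fold change -1.56, SE 0.25, adjusted p = 0.00955). Drip was at 60.9, 60.2 and 68.6 CPM against 30.4, 22.6 and 34.7 CPM. Its groups did not overlap and its fold change was similar in size to that of Ir, but its adjusted p lay just above the limit (log2 fold change -1.11, SE 0.18, adjusted p = 0.0112). The DESeq2 Wald test called Drip lower (adjusted p = 3.59e-06). CG17664 was at 5.68, 6.97 and 4.43 CPM against 2.50, 2.85 and 3.46 CPM, again without overlap and without a call (log2 fold change -0.95, SE 0.22, adjusted p = 0.0370). In the RefSeq annotation, CG4019 lies within the span of CG17664, and since the sources used here do not say whether counting used the strand, their reads may not be fully separate. Irk3 overlaps Grip71, Ir overlaps cnc, and Drip overlaps CG7763 in the same way.

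capaR encodes the receptor of capa neuropeptides, which act on tubule principal cells. It had the lowest counts of these genes, 29, 11 and 20 in wild type and 7, 8 and 2 in klp10ARNAi (log2 fold change -2.24, SE 0.45, adjusted p = 0.0242). The groups did not overlap, but edgeR did not call the gene, whereas the DESeq2 Wald test (adjusted p = 0.00512) and edgeR with total counts (adjusted p = 0.00716) did. CG7589 encodes SecCl, a chloride channel of stellate cells, and was at 24.3, 32.3 and 22.0 CPM against 20.3, 13.0 and 21.1 CPM (log2 fold change -0.53, SE 0.22, adjusted p = 0.188). Its groups were separated by less than 1 CPM.

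Aph-4, an alkaline phosphatase gene known from the tubule, was at 208, 533 and 213 CPM in wild type and at 170, 127 and 204 CPM in klp10ARNAi. Wild type replicate 2 stood far above the other libraries, which set most of the difference (log2 fold change -0.92, SE 0.38, adjusted p = 0.177, and -0.33 without that library). The zinc transporter gene ZnT35C was at 31.5, 32.6 and 26.8 CPM against 27.5, 31.0 and 26.4 CPM, and the groups overlapped (log2 fold change -0.098, 95% interval -0.42 to 0.22, adjusted p = 0.672). Prestin, an anion transporter gene of the SLC26 family, also overlapped, at 15, 10.3 and 13.5 CPM against 10.6, 15.3 and 11.4 CPM (log2 fold change -0.065, 95% interval -0.51 to 0.38, adjusted p = 0.849). The intervals of both genes exclude the fold changes of Irk3, CG4019, Ir and Drip.

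**Figure D1:**
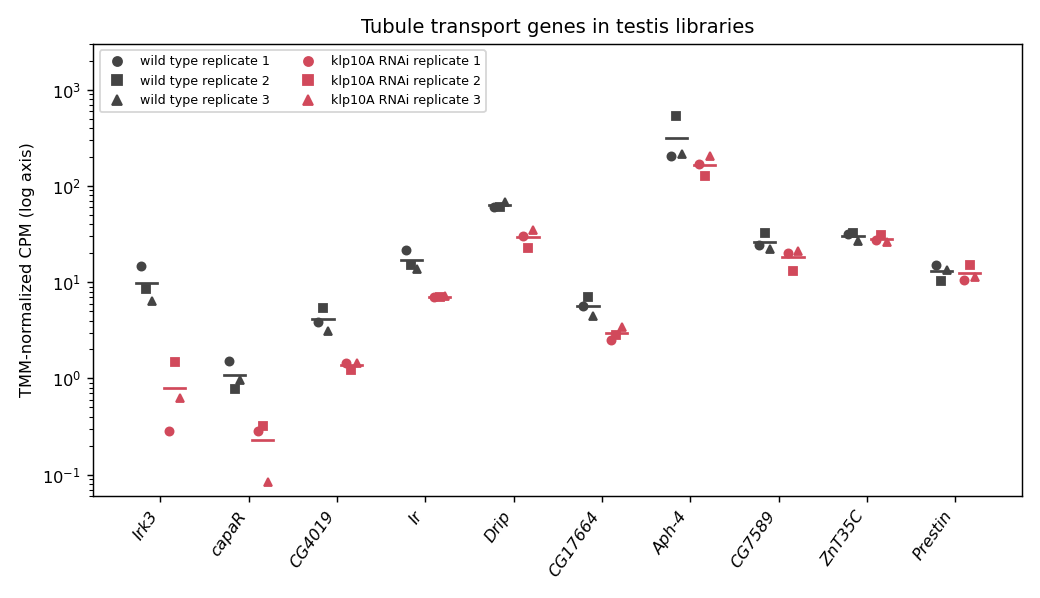
Levels of the 10 tubule transport genes in each of the 3 wild type and 3 klp10ARNAi libraries, in CPM on a log axis, with 1 point per library and a line at the mean of each genotype. Irk3 and capaR lie farthest apart between genotypes, whereas ZnT35C and Prestin overlap and wild type replicate 2 stands high for Aph-4.

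Of 32 tested genes on a list of other epithelial ion and water transport, 5 fell and none rose, against 1.83 and 0.198% of all features. In this list 28 fold changes were below 0, as were 5957 of all 12100, and the median was -0.62 on the log2 scale. The called genes were NaPi-T, Dh31-R, Irk2, Nha2 and nrv1. NaPi-T, a phosphate transporter gene, had 545, 534 and 355 counts in wild type and 11, 61 and 31 in klp10ARNAi (log2 fold change -4.32, SE 0.51, adjusted p = 0.00292). Nha2, a sodium/proton antiporter gene, had 97, 70 and 71 counts against 31, 33 and 34 (log2 fold change -1.75, SE 0.22, adjusted p = 0.00361). The receptor gene of the diuretic hormone DH31, Dh31-R (listed as Dh31-R1), fell by 2.62 on the log2 scale (SE 0.37, adjusted p = 0.00588), and nrv1, a beta subunit gene of the sodium/potassium ATPase, fell by 0.95 (SE 0.15, adjusted p = 0.00865).

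Markers of the tubule itself and of other tissues were measured beside these genes. The 10 tubule markers, some of which are also on the transport list above, had 3 calls, Uro, NaPi-T and Irk2, all lower (1.83% of all features). All 10 were below 0 with no overlap between genotypes (18.4% of all features), and their median was -1.12 on the log2 scale. Their summed level was 210 to 318 CPM in wild type and 90.1 to 117 CPM in klp10ARNAi, and none was at 0 in all libraries. The largest part of this sum was Ncc69, which was not called, at 71.4, 153 and 94.7 CPM against 55.4, 40.9 and 64.3 CPM. Uro, the urate oxidase gene and a defining gene of the principal cells, had 534, 221 and 283 counts in wild type and 17, 71 and 13 in klp10ARNAi (log2 fold change -3.82, SE 0.56, adjusted p = 0.00706). No marker of midgut, accessory gland or ejaculatory duct and bulb was called by edgeR. At an adjusted p under 0.05, however, 5 of the 7 tested midgut markers were lower and 1 was higher (6.01 and 1.6% of all features). The DESeq2 Wald test called 5 of these midgut markers and 7 of the 10 tubule markers lower (4.98% of its features). It also called the midgut markers betaTry and Jon99Ci lower (adjusted p = 7.77e-05 and 0.00897), which edgeR did not test. It called 1 ejaculatory duct and bulb marker lower and 1 higher, and no accessory gland marker. The 10 listed midgut markers summed to 424 to 435 CPM in wild type and 173 to 230 CPM in klp10ARNAi, a sum made up mostly by the amylase genes Amy-p and Amy-d. Of the 7 that were tested, 6 were below 0 and lab was above it (log2 fold change 1.08), and the protease gene alphaTry varied widely within wild type, at 42.8, 1.64 and 14.5 CPM against 0.363, 0.277 and 0.208 CPM in klp10ARNAi. All 9 accessory gland markers were below 0 (median -0.58), and 3 were lower without overlap (18.4% of all features). Their sums overlapped, however, at 1884 to 3437 against 1587 to 2035 CPM, with Acp36DE as the largest part. Ejaculatory duct and bulb markers summed to 1442 to 2156 against 1236 to 1336 CPM, and 3 of 5 were below 0. Fat body markers summed to 79.1 to 94.5 against 56.1 to 75.0 CPM, and all 4 that were tested were below 0 (median -0.32). Hub and cyst markers summed to 81.1 to 106 against 73.6 to 79.2 CPM, and 4 of 6 were below 0 (median -0.25). In these lists edgeR called no marker, and the DESeq2 Wald test called the fat body marker Lsp2 lower (adjusted p = 0.000187). Transcripts of tubule and midgut markers were thus detected in testis libraries of both genotypes, and the part of such tissue in the levels of the transport and Vha genes was not tested.

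Of the 33 V-ATPase genes, 1 rose, the testis-enriched V0 gene VhaPPA1-2, and none was called lower (0.198 and 1.83% of all features). At an unadjusted p under 0.05 there were 9 lower and 6 higher genes (15.6 and 9.6% of all features), at an adjusted p under 0.05 there were 5 and 2 (6.01 and 1.6%), and the DESeq2 Wald test called 4 lower and 1 higher (4.98 and 0.872% of its 13414 features). The classes, which were drawn up with earlier results of these data known, differed in direction. Of the 16 widely expressed genes 14 had a fold change below 0 (median -0.32 on the log2 scale, range -1.17 to 0.17), whereas 6 of the 7 testis-enriched genes were above 0 (median 0.57, range -0.13 to 0.86). The 10 other paralogs were split evenly, with 5 below and 5 above 0 (median -0.011). The sign of many of these small fold changes depends on library scaling: with total counts in place of TMM the median of all features was 0.50, that of the widely expressed genes 0.19 and that of the testis-enriched genes 1.04.

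The 4 widely expressed genes with the most negative fold changes were the V0 genes Vha100-2 (a) and Vha16-1 (c) and the V1 genes Vha68-2 (A) and Vha36-1 (D). All had an adjusted p between 0.01 and 0.05 in edgeR and were not called. The DESeq2 Wald test called Vha100-2, Vha16-1 and Vha68-2 (adjusted p = 4.29e-05, 2.12e-05 and 0.00148) but not Vha36-1 (adjusted p = 0.0154). Vha100-2, which encodes the large membrane subunit a of the proton path, was at 108, 153 and 90.7 CPM in wild type and at 52.6, 44.6 and 59.3 CPM in klp10ARNAi (log2 fold change -1.17, SE 0.22, adjusted p = 0.0187). Vha16-1, whose product forms the proteolipid ring, was at 347, 378 and 295 CPM against 186, 203 and 193 CPM (log2 fold change -0.81, SE 0.16, adjusted p = 0.0240). In both genes all klp10ARNAi libraries were below all wild type libraries.

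Among the other widely expressed V0 genes, VhaAC39-1 (d) was at 41.0, 68.6 and 46.9 CPM in wild type and at 39.9, 29.3 and 41.9 CPM in klp10ARNAi, with overlap (log2 fold change -0.49, adjusted p = 0.218). VhaPPA1-1 (c'') was at 38.6, 50.1 and 39.1 CPM against 34.4, 35.2 and 37.2 CPM, without overlap but with a small difference (log2 fold change -0.26, adjusted p = 0.315). VhaM9.7-b (e) had a log2 fold change of -0.048. The V0 genes of this class thus ranged from a fold change beyond -1 for Vha100-2 to almost none for VhaM9.7-b, with a median of -0.49 over 5 genes.

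Of the V1 genes, Vha68-2, which encodes the catalytic subunit A, was at 117, 193 and 117 CPM in wild type and at 78.0, 65.9 and 75.1 CPM in klp10ARNAi (log2 fold change -0.97, SE 0.22, adjusted p = 0.0383). Its widely expressed paralog Vha68-1 showed no such difference, at 18.2, 23.6 and 22.5 CPM against 26.2, 21.9 and 24.1 CPM (log2 fold change 0.17, SE 0.15, adjusted p = 0.496). The groups of Vha68-1 overlapped, while those of Vha68-2 did not. Vha36-1, for the central stalk subunit D, was at 22.5, 30.1 and 25.4 CPM against 16.6, 17.8 and 17.1 CPM (log2 fold change -0.60, SE 0.14, adjusted p = 0.0433). Vha14-1 (F, also of the central stalk) was at 13.6, 14.8 and 14.0 CPM against 9.47, 13.8 and 12.6 CPM, with overlap (log2 fold change -0.24, adjusted p = 0.386). The remaining V1 genes of this class, Vha55 (B), Vha44 (C), Vha26 (E), Vha13 (G) and VhaSFD (H), had log2 fold changes from -0.59 to 0.025, and none passed either limit. The median of the 9 widely expressed V1 genes was -0.28.

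The accessory genes VhaAC45 and VhaM8.9, whose products assist assembly of the pump, had log2 fold changes of -0.36 and -0.17 without a call. On a list of 6 further genes of V-ATPase assembly and regulation, none was called by edgeR or by DESeq2, 2 were lower at an unadjusted p under 0.05, and the median was -0.37 on the log2 scale. Wild type replicate 2 held the highest wild type level in 12 of the 16 widely expressed genes and in 5148 of the 12100 features. Without it, 346 of all features were called lower in place of 221, and 4 of them were V-ATPase genes, Vha100-2 at a log2 fold change of -0.93, Vha68-2 at -0.68, Vha16-1 at -0.73 and the paralog Vha100-5 at -1.70. The fold changes of the 3 widely expressed genes were thus smaller without this library, although the genes were then called.

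**Figure D2:**
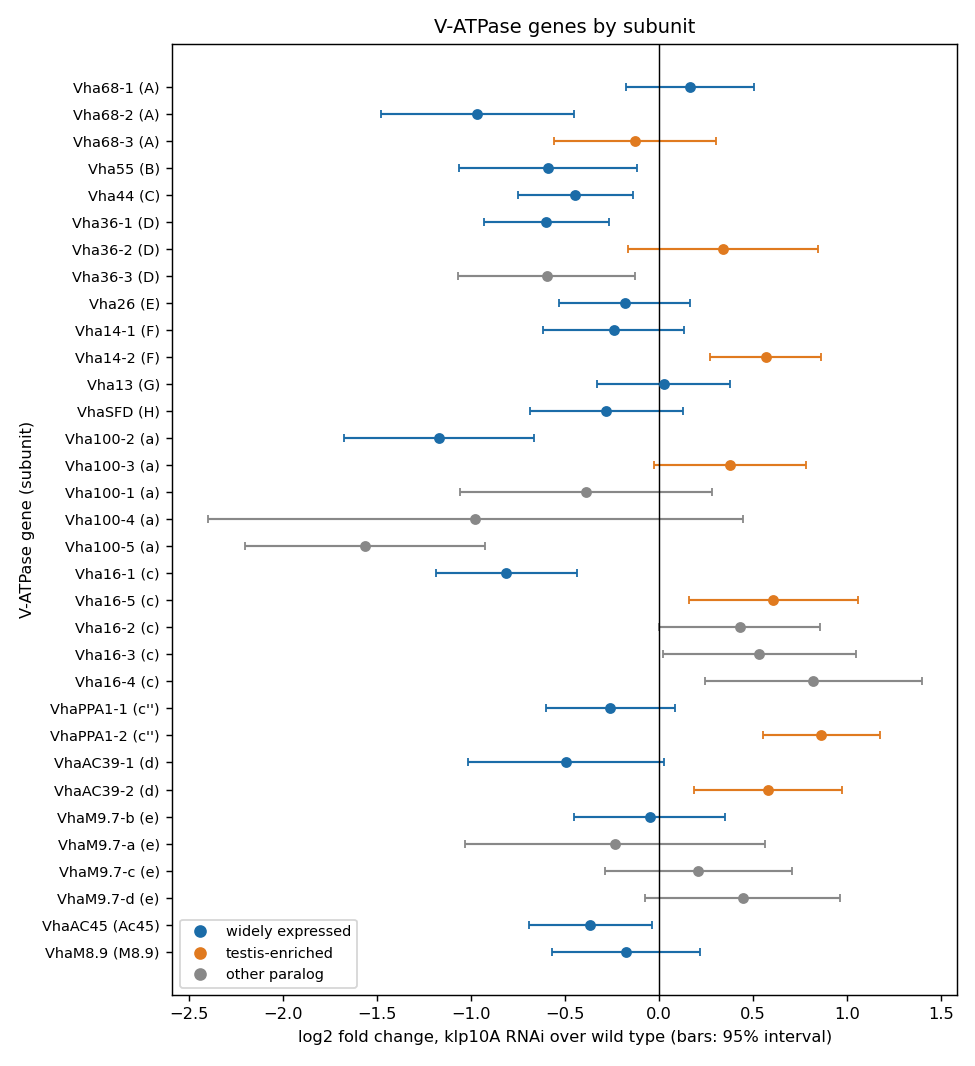
Log2 fold change of each of the 33 V-ATPase genes in klp10ARNAi relative to wild type testes, ordered by subunit and coloured by class, with bars for the 95% interval from the edgeR fit of 3 against 3 libraries. Most widely expressed genes lie below 0 and 6 of the 7 testis-enriched genes above 0, and VhaPPA1-2 is the gene that was called.

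VhaPPA1-2, a testis-enriched gene for subunit c'', was at 5.68, 5.83 and 6.55 CPM in wild type and at 10.8, 11.7 and 10.5 CPM in klp10ARNAi. Both groups were tight and did not overlap, and the rise was 1.82-fold (log2 fold change 0.86, SE 0.14, adjusted p = 0.00955). The call was lost without wild type replicate 1 or 3 or any klp10ARNAi library (adjusted p = 0.0223 to 0.0506), with log2 fold changes of 0.82 to 0.94. Vha14-2 (F) was at 11.2, 10.3 and 12.3 CPM against 16.3, 17.4 and 16.6 CPM, also without overlap, but was not called (log2 fold change 0.57, SE 0.13, adjusted p = 0.0367). Its neighbour in the size of the change, VhaAC39-2 (d), was at 5.79, 8.68 and 7.18 CPM against 11.1, 11.2 and 9.97 CPM (log2 fold change 0.58, SE 0.17, adjusted p = 0.0807).

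Vha16-5 (c) was at 3.63, 5.97 and 5.30 CPM in wild type and at 7.86, 6.98 and 7.80 CPM in klp10ARNAi (log2 fold change 0.61, SE 0.20, adjusted p = 0.1). Vha100-3 (a) was at 69.7, 49.6 and 71.5 CPM against 78.9, 89.1 and 80.0 CPM (log2 fold change 0.38, SE 0.18, adjusted p = 0.225). Both genes were higher in every klp10ARNAi library than in any wild type library, which held for 5 of the 7 testis-enriched genes and for 17.1% of all features. The other two overlapped. Vha36-2 (D) was at 58.1, 33.6 and 55.4 CPM against 61.3, 70.6 and 54.7 CPM (log2 fold change 0.34, SE 0.22, adjusted p = 0.365), and Vha68-3 (A) was at 156, 134 and 117 CPM against 113, 150 and 109 CPM (log2 fold change -0.13, SE 0.19, adjusted p = 0.681). Vha68-3 was the exception among the testis-enriched genes, with a fold change below 0. Overlaps with other genes in the annotation leave the counts of VhaPPA1-2 (CG3817), Vha100-3 (sano) and Vha100-2 (Vti1b) uncertain in the same sense as above.

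Levels of spermatocyte markers lay in the same direction as those of the testis-enriched Vha genes. All 10 spermatocyte markers had fold changes above 0, with a median of 0.51 on the log2 scale and 8 without overlap (17.1% of all features), although none was called. Their summed level was 143 to 177 CPM in wild type and 215 to 240 CPM in klp10ARNAi. Spermatogonial markers summed to 49.5 to 54.6 against 65.1 to 69.8 CPM, with bgcn as the largest part (mean 32.7 against 42.8 CPM). Of these 6 markers, 5 were above 0 and stg was below it (log2 fold change -0.84). All 10 spermatid markers were also above 0 (median 0.17), but their sums overlapped between genotypes, at 1718 to 2362 against 2070 to 2675 CPM. The part of germ cell makeup in the levels of the Vha genes was not tested.

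Among the 10 other paralogs none was called. Vha100-5, a subunit a gene, was farthest from 0, at 8.52, 4.62 and 4.53 CPM in wild type and 1.97, 2.22 and 1.79 CPM in klp10ARNAi (log2 fold change -1.56, SE 0.28, adjusted p = 0.0156). The DESeq2 Wald test called Vha100-5 lower (adjusted p = 0.00011). Vha100-1, which is known mainly from neurons, was at 93.6, 203 and 108 CPM against 109, 85.1 and 116 CPM, so that wild type replicate 2 alone stood apart (log2 fold change -0.39, and 0.031 without it). Vha16-4 and Vha16-3, further genes of the proteolipid c, were higher in all klp10ARNAi libraries than in all wild type libraries, with log2 fold changes of 0.82 (adjusted p = 0.0887) and 0.54 (adjusted p = 0.181). The remaining 6, Vha100-4, Vha36-3, Vha16-2, VhaM9.7-a, VhaM9.7-c and VhaM9.7-d, lay between -0.98 and 0.45. Of these Vha36-3 alone did not overlap, with lower levels in klp10ARNAi. Among all 10 other paralogs, 2 were lower and 2 higher without overlap, near the shares of all features (18.4 and 17.1%).

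The balance between the paralogs of a subunit was then taken within each library, so that library scaling cancels. It was the share of testis-enriched genes in the summed counts of the testis-enriched and widely expressed genes of that subunit, without correction for length. The shares therefore show differences between genotypes and not the makeup of the pump. They come from the same counts as the fold changes above, for classes drawn up with earlier results known, and are not separate support. Of all single features, 18.4% were lower and 17.1% higher without overlap, and the rate for shares of other gene pairs was not computed. In 6 of the 7 subunits with both kinds of gene, the share was higher in each klp10ARNAi library than in each wild type library. The two-sided exact permutation test gave p = 0.1 for each of these 6, which is the smallest value that 3 against 3 libraries allow (adjusted p over 7 subunits 0.117), so no share could pass a limit of 0.05.

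In subunit a, Vha100-3 held 39.1, 24.4 and 44.1% in wild type and 60.0, 66.6 and 57.4% in klp10ARNAi. Means were 35.9 ± 10.2% (SD, n = 3) and 61.3 ± 4.76% (SD, n = 3), a difference of 25.5 percentage points. This share leaves out the other paralogs of subunit a, of which Vha100-1 alone had 1779 to 2856 counts per library. With all paralogs of subunit a in the denominator the shares of Vha100-3 were 24.7, 12.1 and 25.8% against 32.5, 40.2 and 31.1%, still without overlap, and the difference was 13.7 points. In the proteolipid c, Vha16-5 held 1.03, 1.55 and 1.76% against 4.05, 3.33 and 3.89%. In subunit c'', VhaPPA1-2 held 12.8, 10.4 and 14.3% against 23.8, 24.9 and 22.0%. In subunit d, VhaAC39-2 held 12.4, 11.2 and 13.3% against 21.8, 27.6 and 19.2%. These V0 shares all shifted toward the testis-enriched gene in every klp10ARNAi library.

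In the V1 sector, Vha14-2 held 45.1, 41.1 and 46.9% of the counts of Vha14-2 and Vha14-1 in wild type and 63.2, 55.9 and 56.7% in klp10ARNAi. For subunit D, Vha36-2 held 72.1, 52.8 and 68.5% against 78.7, 79.8 and 76.2%. For subunit A the shares of Vha68-3 overlapped, at 53.6, 38.1 and 45.7% against 52.0, 63.1 and 52.5% (exact permutation p = 0.3, difference 10.1 percentage points). Wild type replicate 2 had the lowest wild type share in each of these subunits except c.

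**Figure D3:**
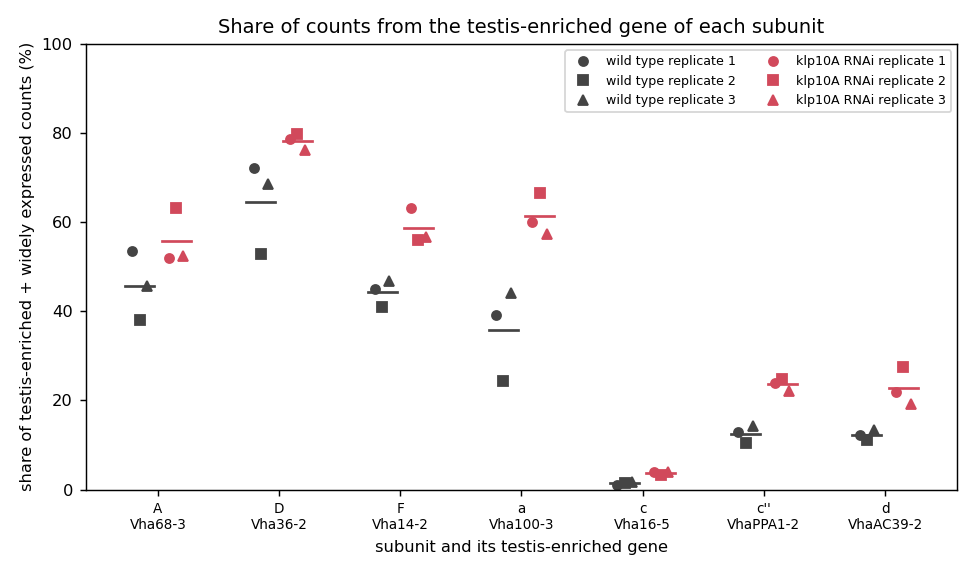
Share of the testis-enriched gene in the summed counts of the testis-enriched and widely expressed genes of each of 7 V-ATPase subunits, other paralogs left out, in percent, with 1 point per library and a line at the mean of the 3 libraries of each genotype. The klp10ARNAi points lie above all wild type points in 6 subunits and overlap them in subunit A.

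The medians of the gene sets in each library show the same separation by class, but they come from the same levels and are not a separate test. Relative to the wild type mean of each gene, the median log2 level of the tubule transport genes stood at 0.025, 0.018 and -0.27 in the wild type libraries and at -1.11, -1.28 and -0.78 in the klp10ARNAi libraries. The median of the widely expressed Vha genes was -0.13, 0.18 and -0.079 against -0.37, -0.37 and -0.25. The median of the testis-enriched Vha genes was -0.010, -0.046 and 0.12 against 0.52, 0.52 and 0.46. The widely expressed Vha genes thus lay between the tubule transport genes and the testis-enriched Vha genes in every klp10ARNAi library. Spermatocyte markers had medians of 0.52, 0.37 and 0.51 in klp10ARNAi, near those of the testis-enriched Vha genes. Spermatogonial markers were also above 0 there, at 0.44, 0.22 and 0.50. So were spermatid markers, at 0.010, 0.41 and 0.046, but these overlapped wild type (0.21, -0.33 and 0.057). Tubule markers had medians of -1.27, -1.31 and -1.05 in klp10ARNAi, near those of the tubule transport genes. Midgut markers lay lower still, at -2.04, -2.86 and -2.36 in klp10ARNAi, but they also varied within wild type, at 0.50, -1.87 and 0.039.

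**Figure D4:**
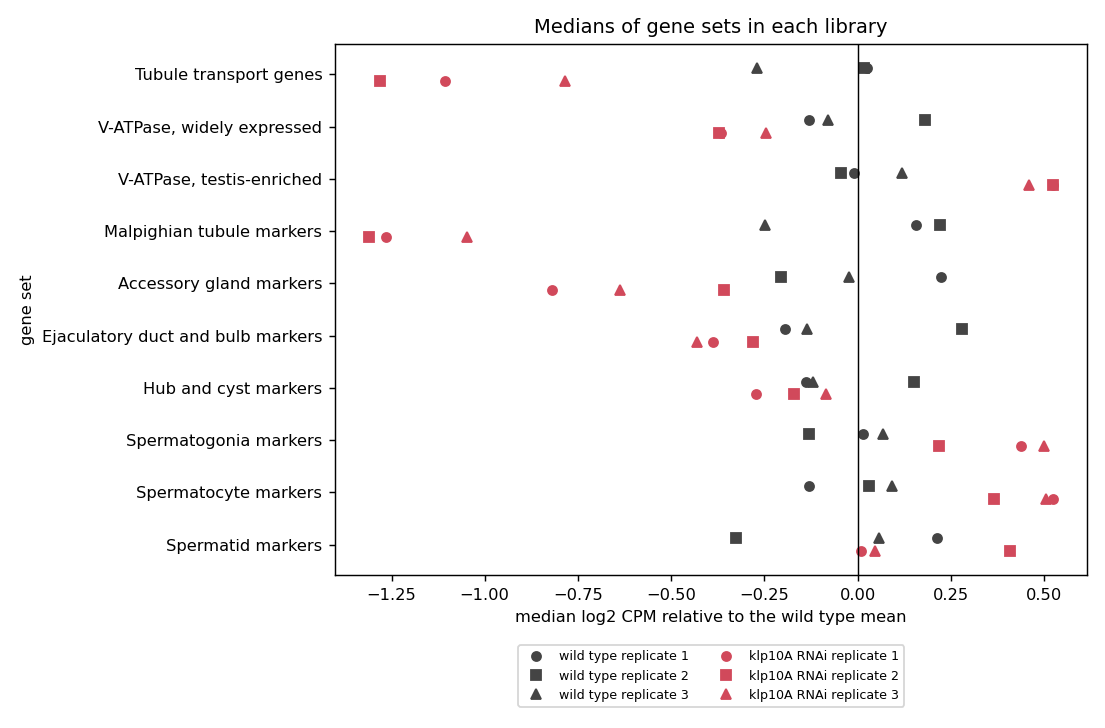
Median, over the genes of each set, of the log2 level in a library relative to the wild type mean of the gene, with 1 point per library. Of the sets drawn, which leave out midgut and fat body markers, tubule transport genes and tubule markers have the 2 lowest medians in klp10ARNAi replicates 1 to 3. Testis-enriched Vha genes and spermatogonia, spermatocyte and spermatid markers lie above 0 in these replicates.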

How the data were processed

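rRNA-depleted RNA was sequenced in 3 libraries per genotype. The authors aligned reads to Dm3 with STAR 2.6.0a and counted genes and TEs with TEtranscripts, and the deposited table holds whole-number counts, used here without change. All per-sample columns were mapped to samples by their names. The piRNA tables list TEs alone and were not used here. Counts were tested with edgeR 4.0.16 in R 4.3.3 (TMM over genes and TEs, filterByExpr by genotype, quasi-likelihood F-test, Benjamini-Hochberg adjustment), at an adjusted p under 0.01. The SE belongs to the log2 estimate of a gene. Paralog shares were compared by exact permutation over 20 splits. Set medians used log2(CPM + 0.1). The edgeR and DESeq2 1.42.0 fits were tested on simulated data. All 43 members passed the filter and matched RefSeq release 6, a different build from Dm3, which was used for names and overlaps only.

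The members, classes and lists were chosen with earlier results of these data known, from general knowledge. Values in every library are given for called members, tubule transport genes and subunits with both kinds of paralog, and other transport genes are named when called. Vha100-5, Vha100-1, Vha16-3 and Vha16-4 were named after their values were seen. The planned promoter, protein and length comparisons were not run, since no sequences were used here. Replicates are separate pools of testes. Alternatives were other scalings, the DESeq2 Wald test, 2 other filters, another limit, a replicate block and leaving out each library.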

Additional observations from a re-analysis of the deposited data

How the results depend on the processing

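Scaling with DESeq2's size factors, TMM over genes alone or without CR-number genes, and no filter beyond a count above 0 left the numbers of called members as they were (V-ATPase 0 lower and 1 higher, tubule transport 3 lower), and no alternative called a tubule transport gene higher. With total counts, 2 V-ATPase genes were called higher, 2 tubule transport genes lower (Irk3 and capaR, not Ir and CG4019) and 263 features higher in all, and the medians were -0.52 for tubule transport, 0.19 for widely expressed and 1.04 for testis-enriched genes. In that setting the sign changed for CG7589 (0.030), Prestin (0.38), ZnT35C (0.40), Vha100-1 (0.18), Vha14-1 (0.23), Vha26 (0.30), Vha44 (0.054), Vha68-3 (0.35), VhaAC39-1 (0.053), VhaAC45 (0.15), VhaM8.9 (0.34), VhaM9.7-a (0.22), VhaM9.7-b (0.42), VhaPPA1-1 (0.25) and VhaSFD (0.24). The DESeq2 Wald test called 4 V-ATPase and 5 tubule transport genes lower, and 668 features lower and 117 higher in all. With a mean of at least 1 CPM, 0 V-ATPase genes were called higher, and 2 tubule transport genes lower. At an adjusted p under 0.05 there were 5 lower and 2 higher V-ATPase genes, 6 lower tubule transport genes, and 727 lower and 193 higher features.

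Same-numbered libraries did not deviate together (correlations -0.277, -0.382 and -0.085), and the main fit did not pair them. With 3 libraries per genotype, these correlations cannot show whether same-numbered libraries were prepared together. With the replicate block 0 V-ATPase genes and 0 tubule transport genes were called, and 95 features were lower and 3 higher.

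Leaving out 1 library gave 0 to 4 lower and 0 to 1 higher V-ATPase genes, 0 to 4 lower tubule transport genes, and 0 to 346 lower and 1 to 43 higher features. Without any 1 klp10ARNAi library no member was called, and adjusted p-values of Irk3 were then 0.0128 to 0.0433. The medians ranged from -1.16 to -0.94 for tubule transport, -0.40 to -0.26 for widely expressed and 0.45 to 0.59 for testis-enriched genes. Differences in paralog share ranged from 6.25 to 14.0 points (A), 7.97 to 17.6 (D), 11.9 to 15.6 (F), 19.7 to 29.6 (a), 2.10 to 2.52 (c), 10 to 11.96 (c'') and 8.24 to 12.4 (d). The sign changed for Prestin (-0.24 to 0.052), Vha100-1 (-0.59 to 0.031), Vha13 (-0.092 to 0.11), VhaM9.7-a (-0.50 to 0.047) and VhaM9.7-b (-0.19 to 0.12). With all paralogs of a subunit in the denominator, an alternative chosen after seeing the data, the difference in share was 13.7 points for a, 14.3 for D and 2.02 for c. The division of shares by coding length was not run.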
